A study of Mus musculus with 12 samples.

Results

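The genes described here are 6 of the neurotrophin system, out of 35580 genes in the deposited table: the ligands Bdnf and Ntf3, the receptor tyrosine kinases Ntrk2 and Ntrk3, and the receptors Ngfr and Sort1. They were chosen by name, and all of their 48 transcripts, out of 115270 in the table, were summed per gene and by form. The RNA came from 12 male C57BL/6 mice (C57BL/6J by the study's methods), 3 individual animals in each of 4 groups, whose hippocampus was taken at postnatal day 70. Control mice came from dams given water and stayed with the dam. Ethanol mice came from dams that could choose 10% ethanol during pregnancy. By the study's methods ethanol was also offered before mating and for a time after birth, which overlapped the days of separation. Stress mice spent 3 h of each day between postnatal days 2 and 14 alone, away from the dam and the litter, and ethanol + stress mice had both exposures. Separated and undisturbed pups could come from the same litter, and the labels do not say which litter a mouse came from. The dose that each pup received through voluntary drinking by the dam is not recorded in the labels.

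Neurotrophins are secreted proteins that keep neurons alive and adjust synapses. They are made as precursors, cut to the mature form, and bind a receptor kinase: BDNF binds TrkB, the product of Ntrk2, and NT-3 binds TrkC, the product of Ntrk3. The precursors bind p75NTR, the product of Ngfr, together with sortilin, the product of Sort1, which also sorts BDNF inside the cell. In the hippocampus BDNF is made by excitatory neurons from several promoters that answer to activity, and TrkB is made both as a full-length kinase and as a truncated receptor without a kinase domain that is abundant in astrocytes.

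Values are TPM, an abundance per transcript that accounts for its length and was already scaled between libraries, so that levels of different genes can be set side by side. From the steps between low values the libraries held 12050000 to 14950000 read pairs. Blood transcripts were high in the exposed mice: the summed TPM of 5 blood genes was 1603 to 2022 in control, 3146 to 6815 in ethanol, 2593 to 3392 in stress and 2454 to 6480 in ethanol + stress libraries. All 5 were called higher (unadjusted limma p below 0.01) in ethanol, in ethanol + stress and in the ethanol main effect. Of all genes, 0.678%, 0.971% and 1.12% were called in these comparisons. The lowest limma adjusted p of a blood gene was 0.76. Libraries also differed in how long transcripts fared. The slope of a library's log2 deviation on transcript length over 22147 transcripts was lowest in ethanol 2 (-0.117 per doubling of length), ethanol + stress 2 (-0.0982) and ethanol + stress 3 (-0.0681), and lay between -0.029 and 0.0743 in the other 9 libraries. Fewer cells of a type and less RNA per cell cannot be told apart in whole tissue.

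Short stretches of sequence show where the forms of these genes part. Full-length and truncated Ntrk2 share their first 1393 coding bases and then use different exons on chromosome 13 (GRCm38, plus strand). The last 30 shared bases are printed in lower case and the bases after the split in capitals. The truncated form ends within 38 bases, at chr13:58932023-58932060, and the full-length form goes on for 1073 bases, of which the first 38, at chr13:58985802-58985839, are shown.
Ntrk2 full-length: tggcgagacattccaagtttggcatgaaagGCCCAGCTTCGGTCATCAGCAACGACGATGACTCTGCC
Ntrk2 truncated: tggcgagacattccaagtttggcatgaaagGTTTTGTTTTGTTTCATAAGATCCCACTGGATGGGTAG
The 3 next stretches are the 250 bases before the first base of a transcript, taken from RefSeq on GRCm38.p6 and printed in the direction of transcription. They belong to Bdnf first exon IV, a start known for its answer to calcium, at chr2:109692186-109692435 (plus strand, within introns of transcripts that start further upstream); to Bdnf first exon VII, the only Bdnf start called in a comparison below, at chr2:109694159-109694408 (plus strand, intronic in the same way); and to the main Ntf3 start, at chr6:126164961-126165210 (minus strand, intronic to the upstream Ntf3 starts). Capitals mark TGACG on either strand, the core of the cAMP response element TGACGTCA.
Bdnf exon IV: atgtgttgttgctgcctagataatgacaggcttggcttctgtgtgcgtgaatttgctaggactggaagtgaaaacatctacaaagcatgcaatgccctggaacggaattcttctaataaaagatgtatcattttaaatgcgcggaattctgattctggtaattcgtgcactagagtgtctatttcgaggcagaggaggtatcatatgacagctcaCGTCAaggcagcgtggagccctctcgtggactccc
Bdnf exon VII: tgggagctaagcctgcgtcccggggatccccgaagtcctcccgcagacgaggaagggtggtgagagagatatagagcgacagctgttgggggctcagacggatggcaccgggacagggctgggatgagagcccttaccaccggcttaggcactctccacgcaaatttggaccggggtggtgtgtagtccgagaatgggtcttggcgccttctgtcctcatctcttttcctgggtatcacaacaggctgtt
Ntf3 main start: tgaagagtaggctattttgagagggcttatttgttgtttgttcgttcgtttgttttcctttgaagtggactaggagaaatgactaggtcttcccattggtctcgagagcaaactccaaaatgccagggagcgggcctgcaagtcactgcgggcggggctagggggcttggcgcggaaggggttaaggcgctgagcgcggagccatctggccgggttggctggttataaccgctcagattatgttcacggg
TGACG was found once before exon IV, on the minus strand, and not in the other windows shown. Of 32851 RefSeq windows of this length, 17.8% held TGACG and 1.55% held TGACGTCA, so that the match is a description of the letters and of no more.

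All 6 genes were detected in every library and passed the filter of 0.1 TPM in at least 6 of 12 libraries. Over the 12 libraries, mean TPM was 212.8 for Ntrk2, 148.8 for Sort1, 64.6 for Ntrk3, 19.8 for Bdnf, 8.99 for Ntf3 and 0.846 for Ngfr. Each gene exceeded the next in this order in 12 of 12 libraries. Only the ranges of the neighbours Ntrk2 (157.6 to 347.8 TPM) and Sort1 (94.1 to 189.0 TPM) overlapped. The receptor kinase of BDNF was thus the most abundant member and p75NTR the least, at 6 to 37 read pairs per library.

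**Figure D1:**
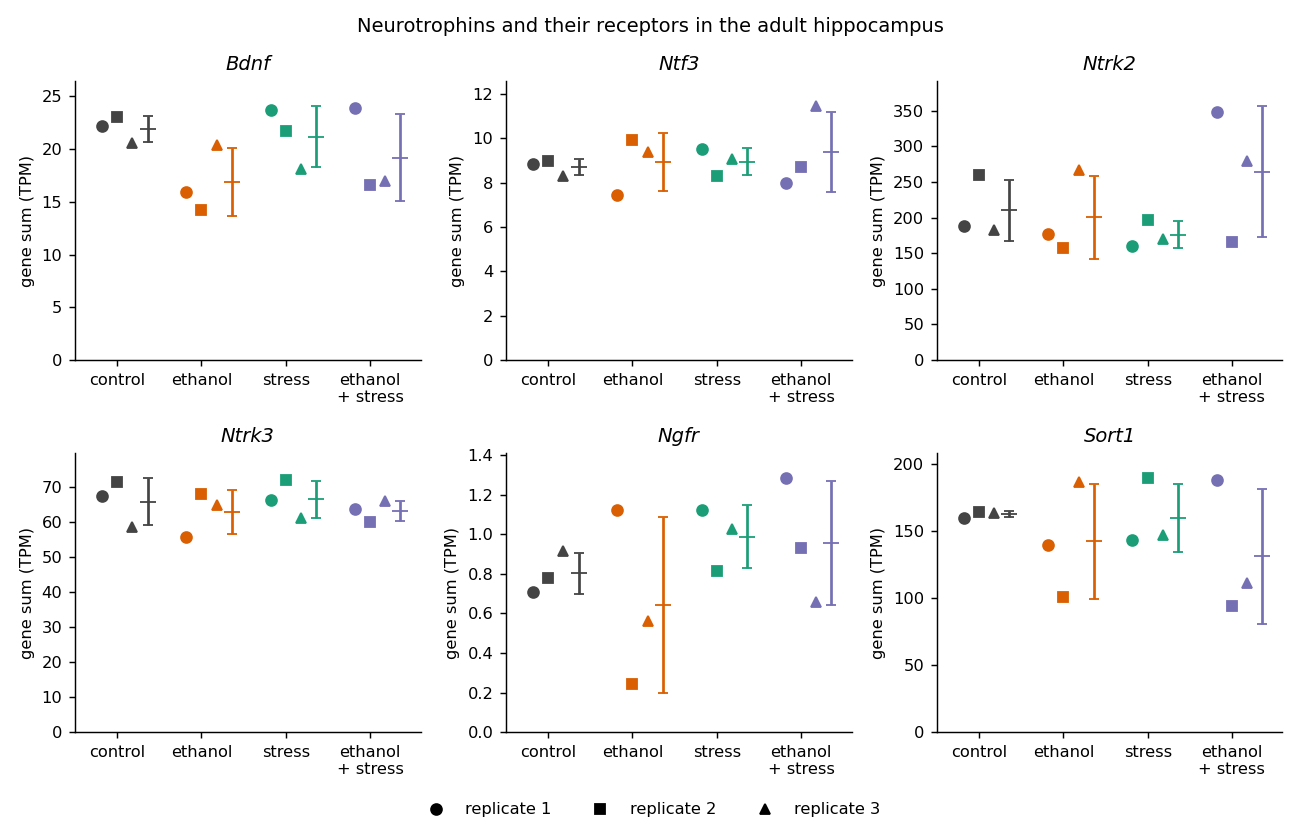
Gene sums in TPM (vertical axes from 0) for the 6 genes in 12 libraries, grouped by exposure, with the mean and SD of 3 mice to the right of each group. Bdnf in the 3 ethanol libraries (14.2 to 20.4 TPM) lies below the 3 control libraries, and Ntrk2 reaches 347.8 TPM in ethanol + stress 1.

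At the level of the whole gene, none of the 6 members passed an unadjusted p below 0.01 in any of 6 comparisons (limma on log2(TPM + 0.5), 4 groups in one model, two-sided). The study used this cut-off on sleuth results for transcripts, so the test and the level differ here. Over all 18434 genes tested, the share called was 0.678% for ethanol, 0.51% for stress and 0.971% for ethanol + stress against control, 0.461% for the interaction, 1.12% for the main effect of ethanol (6 mice against 6) and 0.586% for that of stress. At an unadjusted limma p below 0.05, 1 member, Bdnf, was counted in the ethanol comparison and in the ethanol main effect, beside 670 and 1068 of the 18434 genes. The lowest p adjusted over all genes for a member was 0.76.

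Bdnf had the smallest p among the members. Its sum was 22.2, 23.0 and 20.6 TPM in control, 15.9, 14.2 and 20.4 TPM in ethanol, 23.7, 21.7 and 18.1 TPM in stress, and 23.9, 16.6 and 16.9 TPM in ethanol + stress libraries. The ethanol libraries did not overlap the control libraries, although ethanol 3 lay just below control 3, and 2 of 3 ethanol + stress libraries were low as well. The 3 control mice averaged 21.9 ± 1.23 TPM (SD) and the 3 ethanol mice 16.9 ± 3.2 TPM. The log2 difference was -0.38 (SE 0.17, limma adjusted p = 0.997), and the exact permutation p was 0.1, the smallest that 3 against 3 can give. For the ethanol main effect it was -0.27 (limma adjusted p = 0.76, exact permutation p = 0.075). These values moved with single libraries: without ethanol 3 the ethanol difference was -0.53 and called, without ethanol + stress 1 the main effect was -0.35 and called, and without the 3 libraries of lowest length slope the main effect was -0.05 and not called. That last setting leaves 2 ethanol mice and 1 ethanol + stress mouse, the one with the highest Bdnf. In stress mice Bdnf differed from control by -0.05 on the log2 scale (95% interval -0.42 to 0.31).

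Bdnf transcripts begin at alternative first exons, which are numbered along the gene, and were grouped by their starts in that order. Exon VI gave the most RNA, 47.9% of the Bdnf sum on average, followed by exon IV with 20.01%, exon II with 15.5% and exon I with 12.1%. Exon III and exon VII gave 2.64% and 1.72%, exon VIII was listed at 0 in 9 libraries, and exon V was listed at 0 in all 12. The order of mean share was VI, IV, II, I in control, ethanol and ethanol + stress mice, and in stress mice exon II (15.3%) and exon I (15.2%) were nearly level. Relative to control, the ethanol libraries differed by -0.50 (SE 0.38) for exon I, -0.37 (SE 0.34) for exon II, -0.47 (SE 0.27) for exon IV and -0.18 (SE 0.19) for exon VI on the log2 scale, none of them called. Exon VI held 45.5% of the sum in control and 52.6% in ethanol mice, and 45.1% of it in stress against 48.2% in ethanol + stress mice. Its main effect of ethanol was 5.10 percentage points (exact permutation p = 0.05, Benjamini-Hochberg p = 0.975 over 65 tests of 13 forms).

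Bdnf from exon VII was the only start cluster of the 28 tested for these genes that was called, and the call was for the interaction. It was 0.509, 0.375 and 0.389 TPM in control, 0.277, 0.317 and 0 in ethanol, 0, 0.362 and 0 in stress, and 0.772, 0.595 and 0.399 TPM in ethanol + stress libraries. Ethanol libraries lay below control without separation and above the stress libraries with it. The interaction was 1.28 on the log2 scale (SE 0.39, limma adjusted p = 1), at an estimated 0 to 25.1 read pairs per library. These are computed back from the values and are not reads seen on exon VII. In Bdnf-203, 1 of its 2 transcripts, the first exon holds 213 of 3839 bases. The call was lost on leaving out any 1 of control 1, 2 or 3, ethanol 3, stress 1 or 3, or ethanol + stress 1 or 2 (interaction 1.06 to 1.32), and with a pseudocount of 0.1. Over all 40887 start clusters, 1.16%, 0.814%, 1.12%, 0.822%, 1.37% and 0.88% were called in the 6 comparisons in the order given above. With 1 call among 28 clusters and 6 comparisons, the count is near that background.

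**Figure D2:**
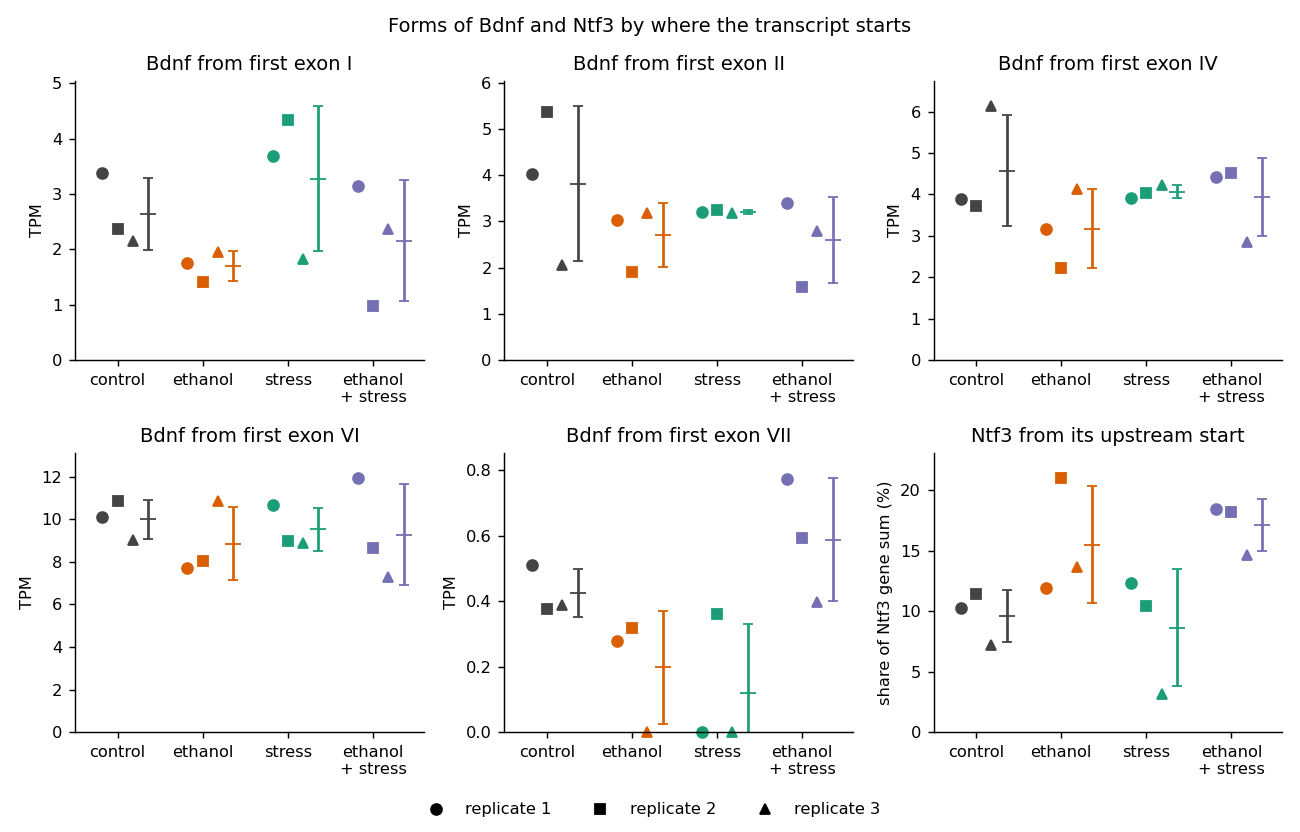
Bdnf by first exon in TPM and the share of Ntf3 from its upstream start in percent (vertical axes from 0), by library and group, with mean and SD of 3 mice. The exon VII values are at most 0.772 TPM, and the Ntf3 shares of ethanol-exposed libraries lie above those of the unexposed libraries with the same separation status.

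Ntf3, the ligand of TrkC, varied little as a gene. Control mice had 8.71 ± 0.369 TPM, ethanol mice 8.92 ± 1.31 TPM, stress mice 8.95 ± 0.617 TPM and ethanol + stress mice 9.38 ± 1.82 TPM (SD, n = 3 each). The largest of its 6 log2 differences was 0.09 (ethanol + stress against control, 95% interval -0.24 to 0.42). Most Ntf3 RNA (86.9% on average) came from the start at chr6:126164960, and a second form began upstream, at chr6:126166910. The share of the upstream form was 10.3%, 11.4% and 7.22% in control, 11.9%, 21.0% and 13.6% in ethanol, 12.3%, 10.5% and 3.18% in stress, and 18.4%, 18.2% and 14.7% in ethanol + stress libraries. All 3 ethanol libraries were above all 3 control libraries, and all 3 ethanol + stress libraries above all 3 stress libraries. Ethanol 1 lay just above control 2 (11.9% against 11.4%, an estimated 10.1 against 9.8 read pairs). The main effect of ethanol was 7.17 points (exact permutation p = 0.005, the smallest that 6 against 6 within strata can give), with a Benjamini-Hochberg p of 0.325 over 65 tests. How many forms of other genes separate in this way was not counted. The form rests on an estimated 3.44 to 20.3 read pairs per library. Its level differed by 0.63 on the log2 scale (SE 0.24, limma adjusted p = 0.741), which is not a call.

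Ntrk2 had the widest range in TPM of the 6 genes, although Ngfr varied more relative to its own level. Ntrk2 was 188.6, 259.3 and 182.8 TPM in control, 177.2, 157.6 and 266.5 TPM in ethanol, 160.7, 197.1 and 170.2 TPM in stress, and 347.8, 166.0 and 279.6 TPM in ethanol + stress libraries. Above the other 8 libraries stood 4: control 2, ethanol 3, and ethanol + stress 1 and 3, which belong to 3 of the groups. The difference between ethanol + stress and control was 0.28 (SE 0.26, limma adjusted p = 0.796, exact permutation p = 0.6), and the interaction was 0.61 (SE 0.37, limma adjusted p = 1), neither called. They were 0.05 and 0.38 without ethanol + stress 1 and 0.59 and 0.92 without ethanol + stress 2.

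The genes most like Ntrk2 across the 12 libraries were its neighbours on the chromosome. Of 14454 other genes with a mean of 1 TPM or more, the 3 with the highest Pearson r of log2 level with Ntrk2 were Agtpbp1 (r = 0.981), Isca1 (r = 0.962) and Tut7 (r = 0.94), whose lower genomic coordinates lie 639, 949 and 965 kb from the Ntrk2 start. Distances of other genes are given in the same way. The neighbourhood was examined after these values were seen, and its values are a description. Around Ntrk2, 6 genes were picked by hand, with no fixed rule, as moving with it. They were Rmi1 (r = 0.935) upstream, at -404 kb from the Ntrk2 start, and Agtpbp1, Naa35 (r = 0.761), Golm1 (r = 0.934), Isca1 and Tut7 downstream. As a ratio to each gene's own median over the libraries, the median of these 6 was 1.44 in control 2, 1.40 in ethanol 3, 1.37 in ethanol + stress 3 and 1.99 in ethanol + stress 1, and between 0.843 and 1.01 in the other 8 libraries. Ntrk2 itself stood at 1.40, 1.44, 1.51 and 1.87 in those 4 libraries and between 0.848 and 1.06 in the rest. For Rmi1, Agtpbp1, Golm1, Isca1 and Tut7 each of the 4 libraries lay above all other 8, and for Naa35 ethanol + stress 3 did not. With upstream distances given as negative, Gkap1 (r = -0.483) and Kif27 (r = 0.186), at -573 and -519 kb, did not share it, 2210016F16Rik (r = 0.712) and Hnrnpk (r = 0.793), at -427 and -415 kb, shared it in part, Klhl3 (r = 0.712), at -806 kb, was at 1.23 in ethanol 3 and 1.30 in ethanol + stress 1 but within the range of the other 8 libraries in control 2 and ethanol + stress 3, and Gas1 (r = 0.25), 1368 kb downstream, did not. The 6 moving genes span from the lower end of Rmi1 at chr13:58402248 to the upper end of Tut7 at chr13:59823147 (GRCm38).

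**Figure D3:**
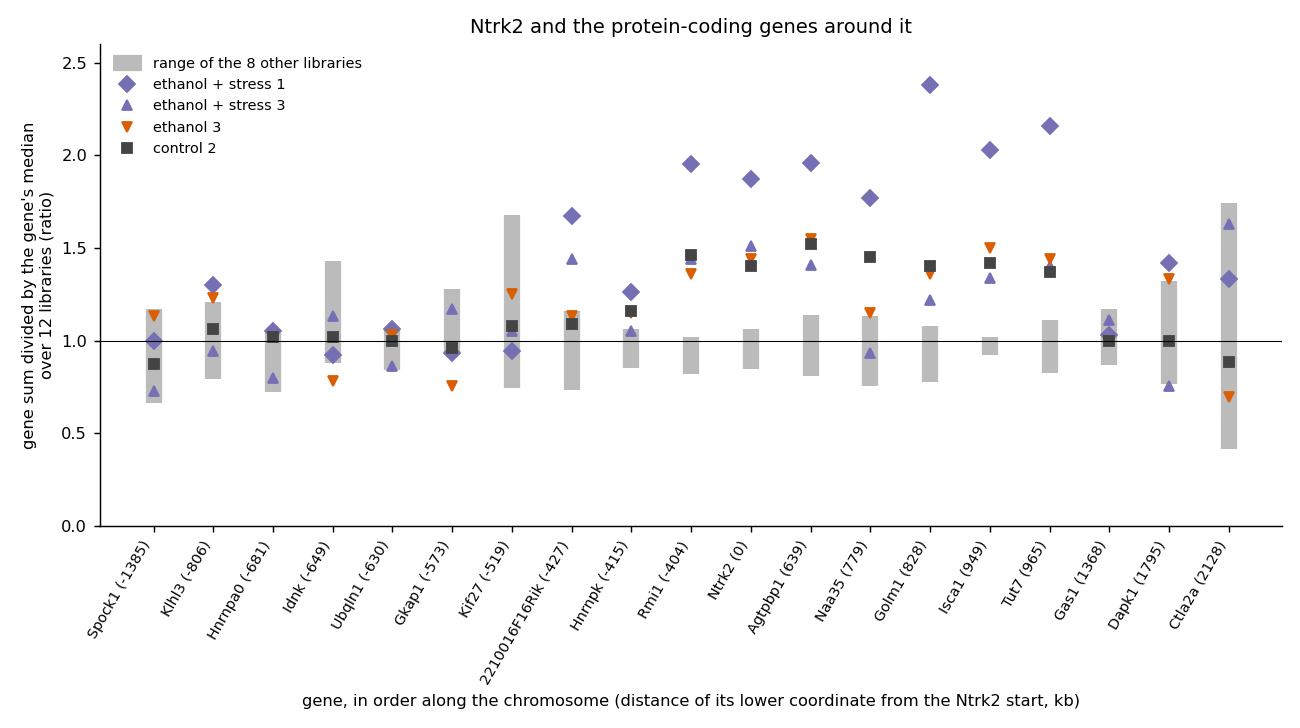
Protein-coding genes with a mean of 2 TPM or more around Ntrk2 in order along the chromosome (horizontal axis, distance of the gene's lower coordinate from the Ntrk2 start in kb) and each gene's sum divided by its median over 12 libraries (vertical axis, ratio). Grey bars span 8 libraries and symbols show the other 4, in which Ntrk2 is at 1.40 to 1.87 and Rmi1, Agtpbp1, Golm1, Isca1 and Tut7 are high with it. Naa35 is high in 3 of the 4, and Gas1 and Gkap1 show no such rise.

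The high libraries are unevenly spread over the groups, with 2 of 3 mice in ethanol + stress, 1 of 3 in control, 1 of 3 in ethanol and 0 of 3 in stress. With the mean log2 level of the 6 neighbours subtracted, the ethanol + stress difference from control was 0.02 for the Ntrk2 sum, 0.25 for its truncated form and -0.53 for its full-length form, against 0.28, 0.52 and -0.26 without. The neighbours were chosen for moving with Ntrk2 in these libraries, which alone brings such a difference of the sum near 0, so nothing is read from these values. The DNA of the mice was not analysed here.

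The forms of Ntrk2 were read beside that pattern. Truncated TrkB, the sum of Ntrk2-202 and Ntrk2-204, held 53.1% of the gene sum on average and full-length TrkB, the sum of Ntrk2-201 and Ntrk2-207, held 34.5%. Another coding form, Ntrk2-205, held 10.2%. It stops at chr13:58878424, before the exons that the full-length form uses after the split. It is not counted in the truncated form here. The truncated form was 94.6, 131.2 and 87.8 TPM in control, 97.6, 90.6 and 116.7 TPM in ethanol, 85.3, 96.5 and 91.5 TPM in stress, and 165.8, 109.8 and 175.9 TPM in ethanol + stress libraries. Its ethanol + stress difference from control was 0.52 (SE 0.19, limma adjusted p = 0.791, exact permutation p = 0.2) and its interaction 0.72 (SE 0.27, limma adjusted p = 1), neither called. Both became calls once each library's trend over transcript length was removed, and without ethanol + stress 2 (0.73 and 0.93), and the first also without control 2 (0.69). With any 1 library left out they ranged from 0.39 (without ethanol + stress 3) and 0.55 (without control 2) up to those values. Of 7 astrocyte markers 0 were called in any comparison, beside 0.461% to 1.12% of all genes. Their median log2 difference between ethanol + stress and control was 0.14, beside 0.02 for all genes. Their summed level was 1937 to 2224 TPM in control and 1819 to 2718 TPM in ethanol + stress libraries. The part of astrocytes in the truncated form was not tested.

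The full-length form was 69.8, 100.5 and 72.8 TPM in control, 53.3, 35.7 and 135.3 TPM in ethanol, 56.5, 75.7 and 62.6 TPM in stress, and 149.97, 33.3 and 58.7 TPM in ethanol + stress libraries. The ethanol and ethanol + stress values enclosed those of control. As a share of the gene sum it ran from 20.03% in ethanol + stress 2, 21.0% in ethanol + stress 3 and 22.7% in ethanol 2 to 43.1% in ethanol + stress 1 and 50.8% in ethanol 3. The 3 lowest shares belong to the 3 libraries with the lowest length slope. The share was 38.5% in control and 28.1% in ethanol + stress mice, a difference of -10.5 points (exact permutation p = 0.4). The full-length transcripts are 8744 and 4706 bases long and the truncated ones 6846 and 3049, and the part of transcript length in these shares was not tested.

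**Figure D4:**
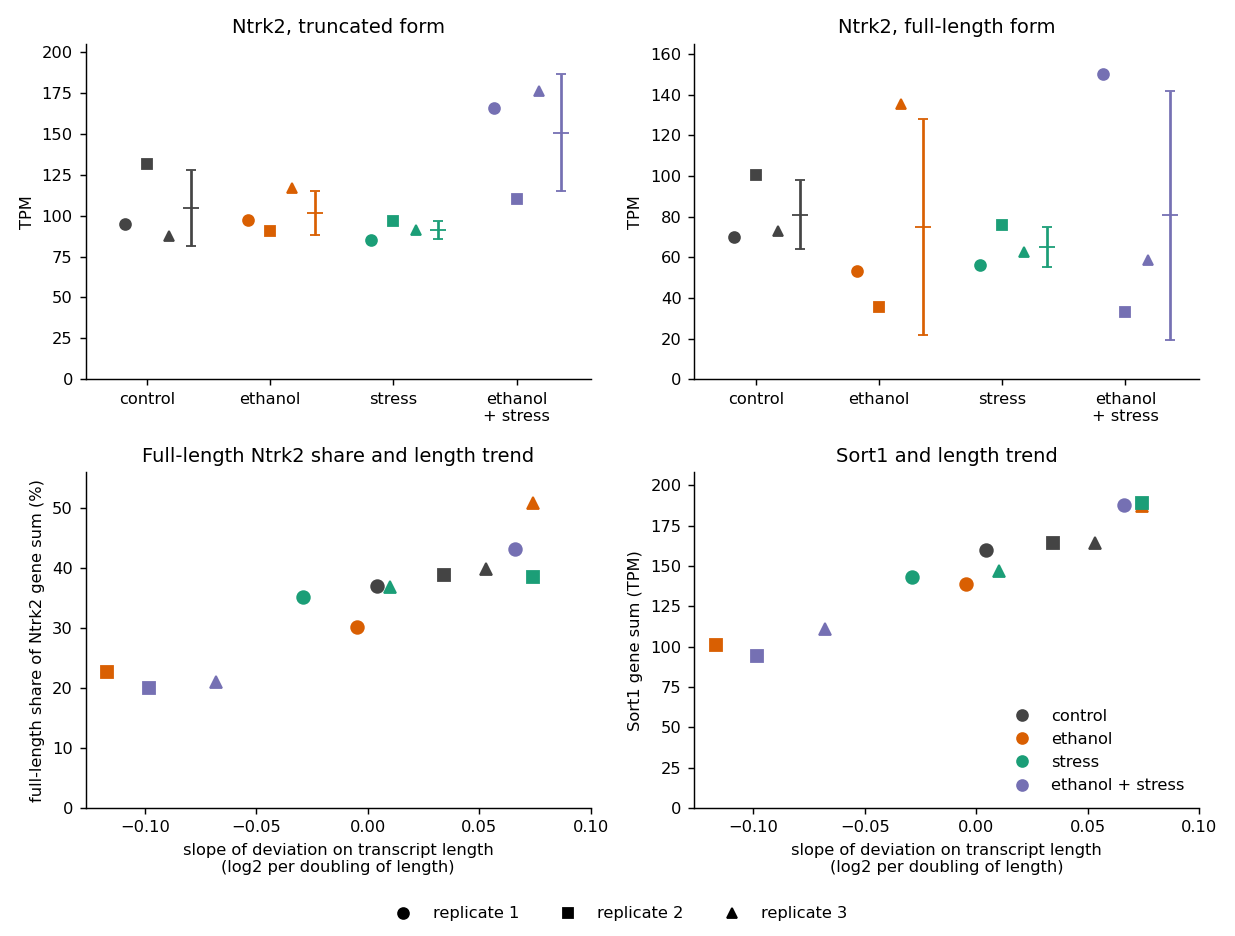
Truncated and full-length Ntrk2 in TPM by library and group with mean and SD of 3 mice (upper panels), and the full-length share in percent and Sort1 in TPM against each library's slope of deviation on transcript length (lower panels). The libraries with slopes of -0.117, -0.0982 and -0.0681 have the lowest full-length shares and the lowest Sort1 levels.

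Among stop-codon groups, which pool coding transcripts of a gene that end at the same stop, 1 of 11 groups of the members was called, in 1 comparison. It was Ntrk2-208, a truncated coding form with its own stop, which was lower in separated mice (log2 difference -1.15, SE 0.33, limma adjusted p = 0.999 for the main effect of stress). It was listed at 0 in 5 of 6 separated and in 1 of 6 undisturbed libraries, so that it passed the filter with exactly 6 libraries, 5 of them undisturbed, and was tested only because it was high there. It reached at most 1.63 TPM and never more than an estimated 31.3 read pairs. Its near neighbour Ntrk2-209, with the same start, had the opposite sign (difference 0.86, SE 0.32, limma adjusted p = 0.999) and was not called. The call of Ntrk2-208 was lost on leaving out any 1 of control 1 or 2, ethanol 2, stress 1, 2 or 3, or ethanol + stress 2 or 3, although the difference stayed between -1.43 and -1 with any 1 library left out. As a single transcript Ntrk2-208 was also the 1 call among 35 member transcripts (limma adjusted p = 1). Calls over all 19976 stop-codon groups were 0.681%, 0.451%, 0.916%, 0.41%, 1.08% and 0.421% in the 6 comparisons, and over all 59852 transcripts 1.26%, 0.914%, 1.21%, 0.854%, 1.47% and 0.934%. The members' counts are near these shares.

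Ntrk3 was the most even member. Its gene sum lay between 55.9 and 71.9 TPM in all 12 libraries, and its log2 difference from control was -0.07 for ethanol, 0.02 for stress and -0.06 for both exposures, each with an SE of 0.10. The kinase forms Ntrk3-201, Ntrk3-205 and Ntrk3-206, which share a stop codon, held 45.4% of the sum and the truncated Ntrk3-202 held 30.2%. Full-length TrkC was 34.3, 28.7 and 29.5 TPM in control, 26.1, 29.7 and 27.6 TPM in ethanol, 30.1, 35.4 and 27.8 TPM in stress, and 27.7, 25.8 and 29.4 TPM in ethanol + stress libraries. The groups overlapped, and the ethanol main effect was -0.15 (SE 0.08, limma adjusted p = 0.75) and not called. Truncated TrkC stayed between 16.6 and 21.7 TPM.

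Sort1 varied with the length trend of the library. It was 159.7, 164.2 and 163.6 TPM in control, 139.1, 100.9 and 186.6 TPM in ethanol, 142.8, 189.0 and 146.7 TPM in stress, and 188.2, 94.1 and 111.0 TPM in ethanol + stress libraries. Controls were close together, while the ethanol and ethanol + stress groups held both low and high libraries. Ethanol + stress differed from control by -0.37 (SE 0.25, limma adjusted p = 0.791, exact permutation p = 0.4), by -0.67 without ethanol + stress 1 (a call), by -0.17 without ethanol + stress 2 and by 0.21 without the 3 libraries of lowest length slope, in which Sort1 was lowest. That last value sets 1 ethanol + stress mouse, the highest of its group, against control and takes its spread from the other groups. The genes most like Sort1 included Atp2a2, a calcium pump (r = 0.995), and Rapgef2 (r = 0.991). Nearly all of the sum (99.5%) came from 2 coding transcripts with a common stop codon.

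Ngfr was near the floor of the data. It gave 19, 19 and 24 read pairs in control, 32, 6 and 17 in ethanol, 33, 20 and 31 in stress, and 37, 27 and 17 in ethanol + stress libraries, and the exact Poisson 95% interval for the lowest, 6 read pairs, runs from 2.2 to 13.1. Control mice had 0.801 ± 0.106 TPM, ethanol mice 0.641 ± 0.446 TPM, stress mice 0.987 ± 0.159 TPM and ethanol + stress mice 0.956 ± 0.313 TPM (SD, n = 3 each). The largest difference, the main effect of stress, was 0.30 (SE 0.19, limma adjusted p = 1, exact permutation p = 0.14). For cholinergic neurons of the septum, which carry p75NTR, the 3 markers Chat, Slc5a7 and Slc18a3 summed to between 0.407 and 2.1 TPM. Ngfr itself was 0.242 to 1.28 TPM, and the part of such neurons in its values was not tested.

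For the other members, the genes of most similar pattern were Scg2, Gclc and Srr for Bdnf (r = 0.965, 0.946 and 0.935), Zfp513, Alad and Trmt61a for Ntf3 (r = 0.898, 0.858 and 0.841), Chtf18, Fance and Gm10343 for Ntrk3 (r = 0.869, 0.851 and 0.786), and Sox18, Gpr108 and Map10 for Ngfr (r = 0.88, 0.858 and 0.832). Scg2 encodes a secretory granule protein. These r are over 12 libraries that share exposures, depth and length trend, and they are the highest of about 14454 genes compared, so they describe the pattern and no more.

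Around the members, 80 of 82 listed genes of the pathway were tested: 9 other ligands, receptors and sorting partners, 10 genes of precursor maturation, 41 adaptors and signalling proteins, 11 regulators of Bdnf transcription and 10 activity-regulated genes, one gene standing in 2 lists. No pathway gene was called in ethanol, stress or ethanol + stress against control or in the interaction. The ethanol main effect called 1 of the 80, beside 1.12% of all genes, so that this count is near the background. The gene was Nras, a small GTPase downstream of Trk receptors, which rose by 0.27 on the log2 scale (SE 0.07, limma adjusted p = 0.76). Control libraries held 24.5, 26.2 and 27.1 TPM of Nras and ethanol libraries 28.8, 30.3 and 33.7 TPM. Stress libraries held 27.8, 23.5 and 22.0 TPM and ethanol + stress libraries 30.5, 30.6 and 28.6 TPM, with no overlap in either pair of groups. The median log2 difference of the 80 genes in the ethanol main effect was -0.03, beside 0.02 for all genes.

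The main effect of stress called 3 of the 80, beside 0.586% of all genes, all 3 lower in separated mice and all among the 10 activity-regulated genes, whose transcription, like that of Bdnf, follows neuronal firing. Fos, a transcription factor subunit, was 23.1, 20.2 and 30.8 TPM in control, 10.8, 19.1 and 32.0 TPM in ethanol, 23.6, 5.37 and 8.6 TPM in stress, and 8.18, 14.6 and 5.74 TPM in ethanol + stress libraries. Separated and undisturbed mice overlapped, with stress 1 above control 1 and 2 and ethanol + stress 2 above ethanol 1, and Fos fell by 1.12 on the log2 scale (SE 0.36, limma adjusted p = 1). Nr4a1, a nuclear receptor, fell by 0.74 (SE 0.23, limma adjusted p = 1), and Dusp1, a phosphatase of MAP kinases, fell by 0.66 (SE 0.18, limma adjusted p = 1). Separated and undisturbed mice overlapped here too. Nr4a1 was 23.1 TPM in ethanol + stress 2 and 17.9 TPM in ethanol 1, and Dusp1 was 9.81 TPM in stress 1 and 9.4 TPM in control 2. The median of the 10 genes was -0.48, beside 0.00 for all genes, and Bdnf differed by 0.06 (95% interval -0.20 to 0.32) in the same comparison.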

How the data were processed

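Hippocampal RNA of 12 mice was sequenced by the study as paired-end reads of stranded total RNA libraries depleted of rRNA. Per the submitters' processing notes and the methods, the authors used CASAVA, assigned reads to mouse transcripts (mm10) with kallisto and compared groups with sleuth. The versions are not given in the sources used here. The deposited values are a signal, TPM per transcript that the authors rescaled between libraries (sums of 889222 to 1173650), not counts. Identifiers of 113580 among the 115270 transcripts were found in GENCODE vM21 (GRCm38), 112441 of these in the same version. A step worth 1 read pair was sought in the low values, of which 77.7% to 82.6% came out whole within 0.1 read pairs. Depth and read pairs rest on that step. Read pairs of a form are estimates, since reads common to several forms of a gene had been divided among them. Poisson intervals of read pairs cover counting error only, and intervals of log2 differences come from the spread between mice in the limma model.

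Transcripts were summed per gene, per start cluster (gap of 100 bases or less) and, for coding transcripts, per stop codon. A feature was tested if 6 or more libraries held 0.1 TPM or more of it. The test was limma 3.58.1 in R 4.3.3 on log2(TPM + 0.5) (lmFit, eBayes with trend), with 4 groups in one model and no replicate block. All tests were two-sided. Features were called at unadjusted p below 0.01, with Benjamini-Hochberg p over all features. The study applied that cut-off to sleuth results for transcripts. A fold change on this scale understates the change of low genes. Shares were tested by exact permutation, within the levels of the other exposure for main effects. Replicates are separate mice. Same-numbered samples of different groups had correlations of their deviations from -0.213 to 0.2, with 2 of 18 pairs above 0.1. These pairs include mice of different dams, so the check cannot exclude a pairing by litter. No pairing was assumed. The model was tested on simulated data. The named genes are the members, the 3 genes most like each, and every pathway gene that was called, of which some items are not reported here. The members, lists and named forms were chosen with earlier results of these data known, and the genes around Ntrk2 after their values were seen. Python 3.11.15, pandas 2.3.3, numpy 2.4.6 and matplotlib 3.10.9 were used for tables and plots.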

Additional observations from a re-analysis of the deposited data

Results flagged for a closer look

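Bdnf from first exon VII was marked because the effect of ethanol differed with separation: the interaction was 1.28 on the log2 scale (limma, a call), with all 3 ethanol libraries below control and all 3 ethanol + stress libraries above stress. It was listed at 0 in 3 libraries, and the adjusted p was 1. Whole groups of 3 were too small to test for single deviating mice.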

How the results depend on the processing

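Counts of members called were 0 under every other pseudocount, filter, scaling and fit tried in each of the 6 comparisons, with these exceptions: leaving out 1 library gave 0 to 1 in the ethanol and ethanol + stress comparisons and in the ethanol main effect (Bdnf, Sort1 and Bdnf), and without ethanol 2 and ethanol + stress 2 and 3, a setting chosen after seeing the data, the ethanol main effect called 1 (Ntrk2). That setting leaves ethanol + stress 1 alone in its group, with the spread assumed to be that of the other groups, so its values below rest on 1 mouse. Calls over forms and comparisons, 1 in each table, were 0 to 6 for transcripts, 0 to 3 for start clusters and 0 to 4 for stop-codon groups when 1 library was left out. For transcripts they were 0 with a minimum of 1 TPM or no filter, 2 without trend, 3 with the length trend removed and 2 on recovered read pairs. For start clusters they were 0 with a filter on the mean, a minimum of 1 TPM, recovered read pairs, a pseudocount of 0.1 or without the 3 libraries, and 3 with the length trend removed. For stop-codon groups they were 0 with a minimum of 1 TPM, 4 with the length trend removed and 3 without the 3 libraries. With the replicate number as a block, stop-codon groups gave 2 calls, and the block changed no other count. As the labels tie no number to a litter, nothing is read from it. Sort1 in ethanol + stress turned from -0.37 to 0.21 without the 3 libraries. Full-length Ntrk2 in ethanol + stress (-0.26) turned to 0.90 without them and ranged from -0.85 to 0.23 with 1 library left out. The Ntf3 share stayed between 5.8 and 8.08 points, and the Bdnf exon VI share between 4.14 and 6.45 points, with exact permutation p up to 0.115. With start clusters of a gap of 500 bases, 1 call remained among 6 Bdnf clusters. The causes of these changes were not tested. With 3 mice a group, an exact test cannot go below p = 0.1, and at 0 to 37 read pairs Ngfr, Bdnf exon VII and the upstream Ntf3 form are limited by counting.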

Other observations

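The neighbourhood of each of the other members was read in the same way as that of Ntrk2, with genes of a mean of 1 TPM or more within 1 Mb on either side, and with no test. The median r of neighbours with the member over 12 libraries was 0.712 for 15 neighbours of Ntrk2. It was -0.249 for 8 neighbours of Bdnf, -0.167 for 21 of Ntf3, 0.0358 for 13 of Ntrk3, -0.19 for 23 of Ngfr and 0.0169 for 39 of Sort1. An r above 0.9 was held by 5 neighbours of Ntrk2 and 6 of Sort1, and none of the other 4 members had any.

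Choroid plexus markers varied more than any member, with summed levels of 617.2 to 1838 TPM in control, 40.1 to 3523 TPM in ethanol, 1654 to 5263 TPM in stress and 205.8 to 7228 TPM in ethanol + stress libraries. C1ql2, a marker of dentate granule cells, in which Bdnf is abundant, was lower in ethanol-exposed mice (main effect -0.30 on the log2 scale, SE 0.09, limma adjusted p = 0.76), the only 1 of 5 dentate markers called, where 1.12% of all genes were called. The median of the 5 was -0.08. Iyd and Igf2 were the only markers of CA3 and of fibroblast, meningeal and mural cells called, both higher in ethanol + stress than in control (limma adjusted p = 0.791 for both), where 0.971% of all genes were called. The median log2 difference of the 6 fibroblast, meningeal and mural markers in that comparison was -0.04, opposite in sign to Igf2, and that of the 4 CA3 markers was 0.15. The part of cell composition in the members' values was not tested.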
